A study of Mus musculus with 3 samples.

Results

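The genes that write, copy and erase DNA methylation, and the core of Polycomb repressive complex 2 (PRC2), were measured in 3 stable BCR::ABL1+ cell lines with kinase inactive CDK6. The members were chosen by name. They were *Dnmt1*, *Dnmt3a*, *Dnmt3b*, *Uhrf1*, *Tet1*, *Tet2*, *Tet3*, *Ezh2*, *Eed* and *Suz12*, which are 10 of the 50686 genes in the count table. All 10 were found by Ensembl identifier, and all 10 had at least 10 counts over the 3 lines.

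The *Cdk6* KM/KM lines came from bone marrow of C57BL/6 mice that carry the K43M mutation of CDK6 on both alleles. The cells were transduced with a retrovirus for the p185 form of BCR::ABL1, grew out as stable lines, and are labelled as precursors of B cells (Pre/Pro-B-cells). Each line gave 1 poly(A) RNA library. The age and sex of the mice are not given in the sources used here. The study set these lines against wildtype and *Cdk6* knockout lines, which were not analysed here. The values cover a single genotype, and no difference between genotypes was computed. An established line is a population that grew out in culture, so a line can carry changes of its own beside the genotype.

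DNA methylation at CpG sites is set down de novo by DNMT3A and DNMT3B and copied onto the new strand after replication by DNMT1, which UHRF1 recruits to sites where only the old strand is methylated. The TET enzymes oxidise methylated cytosine and so open the way to its removal. PRC2 trimethylates lysine 27 of histone H3: EZH2 is the catalytic subunit, and EED and SUZ12 are needed for its activity. In blood cells some of these genes are known for mutations in leukaemia, and EZH2 for its role in early B cell development.

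Libraries held from 19633463 to 25773221 counts, and an unread gene could still have up to 3 counts, or 0.118 to 0.152 CPM. CPM are a gene's counts as a share of its library, on the counts-per-million scale, after scaling with edgeR's trimmed mean of M values (TMM). *Cdk6* was read in every line, with a mean of 341 ± 105 CPM (SD, n = 3), but a count per gene does not show the mutated base. The labelled cell type was visible in its markers. Of 10 markers of B-lymphoid precursors, 9 reached at least 1 CPM in every line and their sum was 3971 to 4327 CPM, while *Dntt* had 2.29 ± 1.75 CPM (SD, n = 3). The sum was at most 0.432 CPM for 5 T cell markers and 0.322 CPM for 4 erythroid markers. It was 1.75 to 3.93 CPM for 6 myeloid markers, of which *Lyz2* gave most and *Ly6g* and *Elane* were at 0 in every line. Among 4 stromal and endothelial markers, *Col1a1*, *Col3a1* and *Cdh5* were at 0 in every line, whereas *Pecam1*, which blood cells also express, had 49.5 to 99.7 CPM.

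The promoter sequences of the 4 members with the highest level per exon length are shown first, as the genes read most per length. Each is the window of 250 bases before to 30 bases after the RefSeq start site that lies nearest to the start of the main transcript, read 5′ to 3′ on the strand of the gene in GRCm38.p6. Capitals mark exact matches, on either strand, to CCAAT (the core of the NFY motif), to TTTCCCGC or TTTGGCGC (forms of the E2F motif) and to the palindromic motif of NRF-1. The motifs were chosen after the levels were seen.
Uhrf1, chr17:56303087-56303366, plus strand: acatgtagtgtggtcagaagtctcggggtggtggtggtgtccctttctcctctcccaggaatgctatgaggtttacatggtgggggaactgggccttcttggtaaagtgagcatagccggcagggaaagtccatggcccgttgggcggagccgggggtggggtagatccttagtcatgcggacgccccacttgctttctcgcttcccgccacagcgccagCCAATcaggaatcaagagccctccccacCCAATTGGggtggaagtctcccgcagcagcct
Dnmt1, chr9:20952950-20953229, minus strand: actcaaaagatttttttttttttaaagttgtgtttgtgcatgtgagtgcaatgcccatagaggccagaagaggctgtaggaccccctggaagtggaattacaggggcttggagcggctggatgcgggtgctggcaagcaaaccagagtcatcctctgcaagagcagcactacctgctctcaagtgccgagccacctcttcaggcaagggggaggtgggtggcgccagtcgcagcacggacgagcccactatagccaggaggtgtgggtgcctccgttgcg
Ezh2, chr6:47595001-47595280, minus strand: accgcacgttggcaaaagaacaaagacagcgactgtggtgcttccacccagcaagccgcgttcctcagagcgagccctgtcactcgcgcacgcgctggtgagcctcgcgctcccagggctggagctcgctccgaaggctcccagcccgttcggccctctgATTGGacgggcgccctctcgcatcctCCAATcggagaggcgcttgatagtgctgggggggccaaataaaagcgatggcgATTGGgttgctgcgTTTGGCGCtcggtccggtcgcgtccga
Suz12, chr11:79992856-79993135, plus strand: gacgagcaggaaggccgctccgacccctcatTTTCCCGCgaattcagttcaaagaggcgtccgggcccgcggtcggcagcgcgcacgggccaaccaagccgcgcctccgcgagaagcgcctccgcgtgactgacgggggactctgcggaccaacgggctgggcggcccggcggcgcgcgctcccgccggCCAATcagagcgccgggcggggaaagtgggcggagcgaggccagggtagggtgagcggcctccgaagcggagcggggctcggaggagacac

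CCAAT was found in the windows of *Uhrf1*, *Ezh2* and *Suz12* and not in that of *Dnmt1*, whose other RefSeq starts lie 356 and 6909 bases away and hold it. In *Uhrf1*, CCAATTGG is read as CCAAT on both strands. Of the 10 windows nearest to a main start, 5 held CCAAT (*Uhrf1*, *Tet3*, *Ezh2*, *Eed* and *Suz12*), against 36.1% of all 32851 windows of this length in RefSeq. TTTCCCGC was found in *Suz12* and TTTGGCGC in *Ezh2*, each in 1 of the 10 windows, against 1.01% and 0.469% of all windows. GGGCGG, the SP1 motif, which is not capitalised above, was found on either strand in 7 of the 10 against 34.7%. For NRF-1, 0 of the 10 windows and 0.910% of all windows held the letters, although the *Dnmt1* start 356 bases away held them. The shares over all windows take every start, while the 10 take 1 per gene. Over all 15 windows of the members, 8 held CCAAT, 11 held GGGCGG and 1 held the NRF-1 motif. TTTCCCGC and TTTGGCGC were each in 1 of the 15. The windows nearest to a main start held between 9 (*Dnmt1*) and 56 (*Tet2*) CpG sites, with a median of 23, against a median of 6 over all windows. For *Tet1* and *Tet3* the nearest RefSeq start was 11794 and 14714 bases from the start of the main transcript, so these windows may not be the promoter in use. In a window that runs on to 50 bases after the start, which was used first and then shortened to hold fewer transcribed bases, the *Dnmt1* window printed above also held the NRF-1 motif, and that of the start 356 bases away also held TTTGGCGC. Counts per gene do not show which start was used, and a match is a description of the letters only.

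Of the 3 DNA methyltransferases among the members, *Dnmt1* had the highest and *Dnmt3b* the lowest level per exon length, as given below for each gene. *Dnmt1* (ENSMUSG00000004099.16, chromosome 9, 20907209 to 20959888 in mm10, 39 exons in its main transcript) had 660.9, 794.0 and 656.4 CPM in lines 1, 2 and 3, with a mean of 704 ± 78.2 CPM (SD, n = 3). Line 2 was highest, and lines 1 and 3 overlapped within their counting intervals (95%, exact Poisson), which cover counting error only. In bulk RNA, fewer cells that express a gene and less RNA per cell cannot be told apart.

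*Dnmt3a* (ENSMUSG00000020661.15, chromosome 12, 3806007 to 3914443), the de novo enzyme of blood stem and progenitor cells, had 185.0, 139.3 and 153.0 CPM, or 159 ± 23.5 CPM (SD, n = 3). Line 1 was highest and line 2, the highest line for *Dnmt1*, was lowest. *Dnmt3b* (ENSMUSG00000027478.15, chromosome 2, 153649450 to 153687730), the de novo enzyme best known from the early embryo, was read 194, 201 and 121 times, which gave 8.94, 10.2 and 4.75 CPM. Lines 1 and 2 overlapped within their counting intervals and line 3 lay below both, 2.14-fold under line 2. Of the stretches of 50 bases in the main transcript of *Dnmt3b*, 11.4% also occur in *Dnmt3c*, a gene that had 0 counts in every line. *Dnmt3l*, the catalytically inactive partner of the de novo enzymes in germ cells, had 0 counts as well.

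*Uhrf1* (ENSMUSG00000001228.14, chromosome 17, 56303321 to 56323486), which brings DNMT1 to replicated DNA, varied most between lines among the members above 10 CPM. It had 324.3, 580.5 and 391.9 CPM in lines 1, 2 and 3, or 432 ± 133 CPM (SD, n = 3), and the counting intervals of the lines were apart. Line 2 was 1.79-fold above line 1. In the main transcript, 18.9% of the 50-base stretches occur in *Gm15953* or *Gm5648*, which had at most 2 counts in a line. How reads with several matches were counted is not given in the sources used here, so the level of *Uhrf1* may be understated. Its relative *Uhrf2* stayed at 134 ± 0.853 CPM (SD, n = 3).

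**Figure D1:**
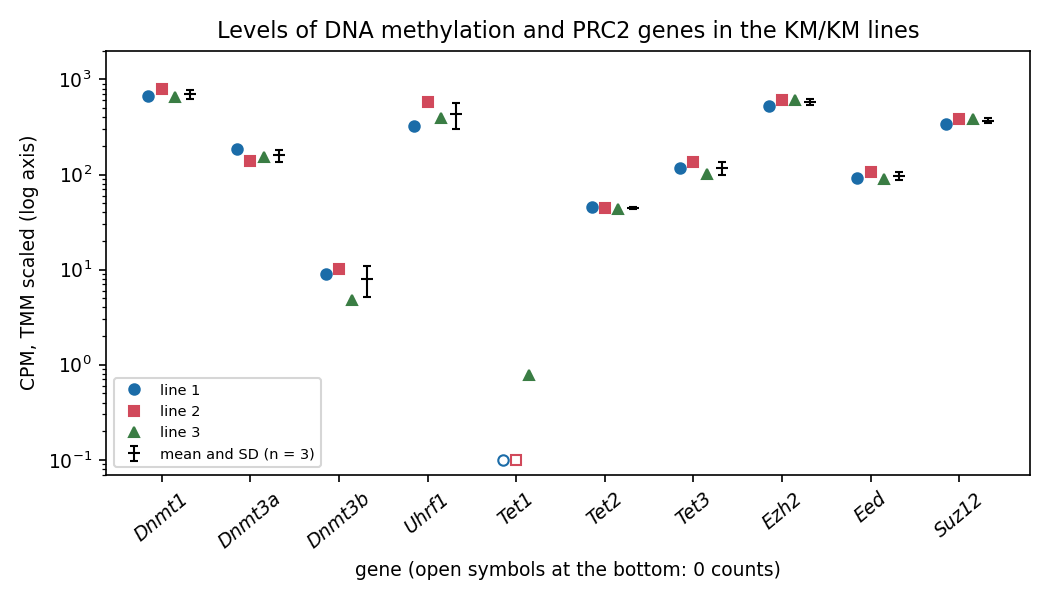
Levels of the 10 genes in CPM after TMM scaling, on a log axis, with 1 symbol per KM/KM line and the mean and SD (n = 3) beside them. *Dnmt1* has a mean of 704 CPM, and *Tet1*, with 0 counts in lines 1 and 2 (open symbols), has 0.785 CPM in line 3.

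The TET genes fell into a detected pair and a gene near 0. *Tet3* (ENSMUSG00000034832.15, chromosome 6, 83362373 to 83459084) had 116.5, 136.3 and 100.2 CPM, or 118 ± 18.0 CPM (SD, n = 3), and its 3 lines were apart by their counting intervals, with line 2 highest. *Tet2* (ENSMUSG00000040943.12, chromosome 3, 133463679 to 133545139), a gene often mutated in myeloid disease, had 46.1, 43.97 and 43.7 CPM, or 44.6 ± 1.31 CPM (SD, n = 3). All 3 counting intervals of *Tet2* overlapped.

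*Tet1* (ENSMUSG00000047146.16, chromosome 10, 62804570 to 62908996), the TET enzyme best known from embryonic stem cells, had 0 counts in lines 1 and 2 and 20 counts in line 3. The 20 counts are 0.785 CPM with a 95% interval of 0.480 to 1.21 CPM, and the limit of 3 counts used here for a count of 0, which is not that interval, is 0.138 CPM in line 1 and 0.152 CPM in line 2. *Tet1* was thus seen in line 3 alone at this depth, at a level 118-fold below *Tet3* per exon length in the same line (95% counting interval of the *Tet1* count, 76.5 to 193). In lines 1 and 2, *Tet3* was at least 780-fold and at least 830-fold higher than *Tet1*, with *Tet1* set to 3 counts in each library. With main-transcript lengths the value in line 3 was 309-fold and those in lines 1 and 2 at least 2038-fold and 2168-fold.

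By the SD of log2(CPM + 1) between lines, the core subunits of PRC2 and *Tet2* had the smallest values among the members, from 0.04 to 0.13. By edgeR's biological coefficient of variation the order was another, with *Dnmt1* (0.133) under *Eed* (0.145) and *Tet2* (0.167). *Ezh2* (ENSMUSG00000029687.16, chromosome 6, 47530139 to 47595341), the methyltransferase, had 528.4, 611.1 and 607.0 CPM, or 582 ± 46.6 CPM (SD, n = 3). *Suz12* (ENSMUSG00000017548.15, chromosome 11, 79993106 to 80034123), the scaffold subunit, had 342.4, 382.5 and 380.5 CPM, or 368 ± 22.6 CPM (SD, n = 3). For both genes line 1 lay below the counting intervals of lines 2 and 3, which overlapped. *Eed* (ENSMUSG00000030619.9, chromosome 7, 89954654 to 89980983), which binds trimethylated H3K27, had 92.3, 106.3 and 89.9 CPM, or 96.2 ± 8.88 CPM (SD, n = 3), with line 2 above the counting intervals of the others.

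An antisense transcript that overlaps 6.82% of the exon bases of *Eed*, *E230029C05Rik*, had 5 to 13 counts in a line, against 2004 to 2289 for *Eed*. The antisense transcripts that share exon bases with *Suz12*, *Ezh2*, *Dnmt3a* and *Tet2*, and *Dnmt3bos*, had at most 7 counts in a line. The strand setting of the counting is not given in the sources used here, so antisense reads on the members themselves cannot be told apart from sense reads.

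Members were ordered by level per length, as CPM per kilobase of the union of a gene's exons. *Uhrf1* (101 ± 31.2), *Dnmt1* (95.4 ± 10.6) and *Ezh2* (87.2 ± 6.98; SD, n = 3 each) led, and neighbours in this order overlapped between lines, so their order is not settled. *Suz12* followed with 74.5 ± 4.57 and *Eed* with 25.1 ± 2.32 CPM per kilobase. Below them came *Dnmt3a* with 9.56 ± 1.41, *Tet3* with 7.05 ± 1.08, *Tet2* with 2.64 ± 0.0778 and *Dnmt3b* with 1.56 ± 0.557 CPM per kilobase (SD, n = 3 each). From *Ezh2* down to *Tet1*, each gene was above the next in 3 of 3 lines, without overlap of the lines. The length of the main transcript in place of the union of exons put *Ezh2* first, with 209 CPM per kilobase, and placed *Tet3* (19.8) above *Dnmt3a* (16.4).

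**Figure D2:**
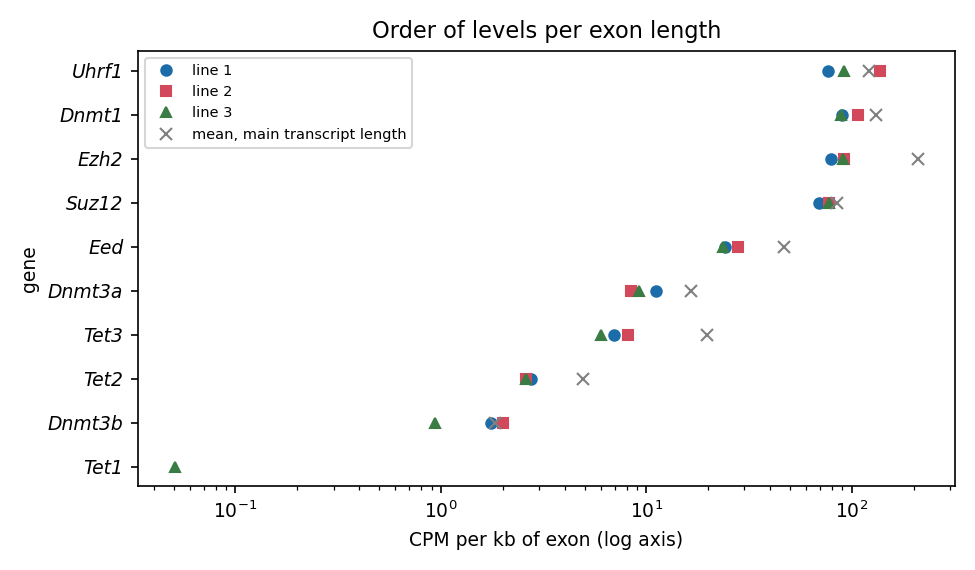
Level of each gene in CPM per kilobase of exon on a log axis, 1 symbol per line, with grey crosses for the mean when the main transcript's length is used instead. *Uhrf1*, *Dnmt1* and *Ezh2* overlap at the top, *Dnmt3b* lies near 1.56, and *Tet1* is shown for line 3 only since it had 0 counts elsewhere.

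Ratios within a library need no scaling and were taken for 7 pairs of related genes, on the log2 scale and per exon length. *Dnmt1* exceeded *Dnmt3a* by 3.32 ± 0.34 (SD, n = 3), or 10.0-fold, and *Dnmt3a* exceeded *Dnmt3b* by 2.68 ± 0.62, or 6.41-fold. The second ratio ran from 2.07 in line 2 to 3.30 in line 3, the line with the lowest *Dnmt3b*. With main-transcript lengths the means of the first and second ratio became 3.00 and 3.22. *Dnmt1* and *Uhrf1*, which act together, differed by -0.05 ± 0.29, with *Dnmt1* ahead in line 1 (0.23) and behind in line 2 (-0.34). *Tet2* was below *Tet3* in 3 of 3 lines, at -1.40 ± 0.22 (SD, n = 3).

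In PRC2, *Ezh2* exceeded *Ezh1*, the paralog that prevails in resting cells, by 4.40 ± 0.12 on the log2 scale, or 21.1-fold, with 4.28, 4.39 and 4.52 in lines 1, 2 and 3. *Ezh1* itself had 30.7 ± 1.48 CPM (SD, n = 3). *Suz12* exceeded *Eed* by 1.57 ± 0.13 and *Ezh2* exceeded *Eed* by 1.80 ± 0.14 (SD, n = 3 each). With main-transcript lengths these became 0.86 and 2.17. The 3 PRC2 ratios had the smallest SDs of the 7 pairs. With 3 lines, the smallest two-sided p of an exact paired test is 0.25, so no test was made on these ratios.

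The counts of 9 of the 10 members differed between lines by more than counting noise (chi-square test across libraries, Benjamini-Hochberg adjusted across every gene tested), and *Tet2* did not pass. This test compares libraries and not conditions. Over all 13974 genes tested, 66.8% passed, and over the 8528 genes with a mean of at least 10 CPM, 81.2% did. Of the 8 members above that level 7 passed, a share near the background. *Dnmt3a*, *Uhrf1* and *Tet3* also passed in each of the 3 fits that left out a line. *Ezh2* and *Suz12* did not pass without line 1, *Dnmt1* and *Eed* without line 2, and *Dnmt3b* and *Tet1* without line 3.

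The spread between lines of the members lay within that of other genes. The SD of log2(CPM + 1) had a median of 0.18 over the 10 members and of 0.17 over all genes tested. For the 8 members with a mean of at least 10 CPM the median was 0.14, against 0.15 for all genes above that level, whose quartiles were 0.08 and 0.25. *Uhrf1* with 0.43 lay above the upper quartile and *Tet2* with 0.04 below the lower. *Dnmt3b*, under 10 CPM, had 0.51. The biological coefficient of variation that edgeR estimated per gene ran from 0.119 for *Suz12* to 0.444 for *Dnmt3b*, with 1.75 for *Tet1*, against a common value of 0.366.

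**Figure D3:**
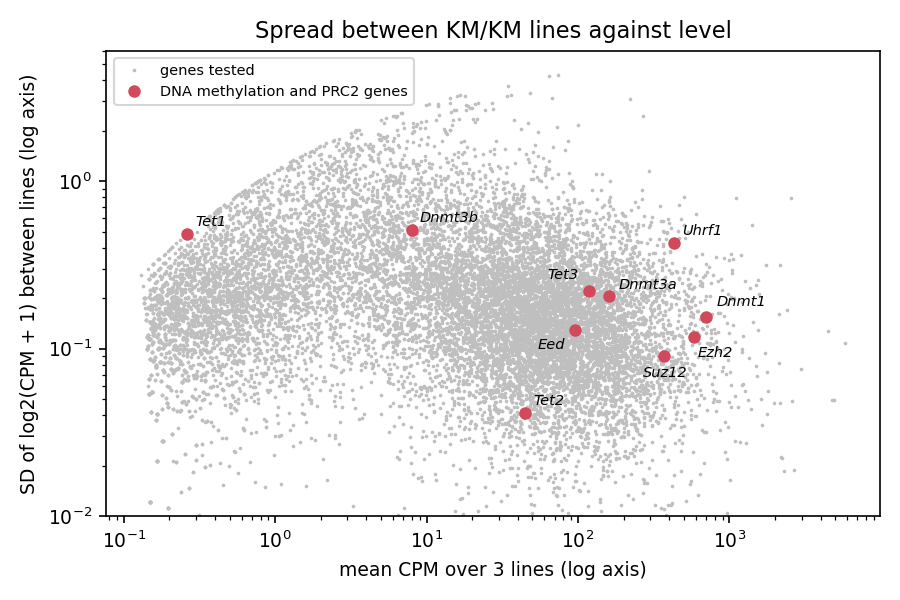
SD of log2(CPM + 1) between the 3 lines against the mean level in CPM, both on log axes, for the genes tested with an SD of at least 0.01 (grey) and the 10 members (red). *Tet2* lies at 0.04 and *Uhrf1* at 0.43, while *Dnmt1*, *Ezh2* and *Suz12* lie at 0.16, 0.12 and 0.09.

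Line 2 was the highest line for 7 of the 10 members, namely *Dnmt1*, *Dnmt3b*, *Uhrf1*, *Tet3*, *Ezh2*, *Eed* and *Suz12*, and the number was 7 with each of 3 ways to scale the libraries. For *Dnmt3b*, *Ezh2* and *Suz12*, line 2 overlapped the next line within counting intervals. Of all genes with a mean of at least 10 CPM, 32.7% were highest in line 2. *Dnmt3b*, which is among the 7, and *Tet1*, which is not, had lower means and lie outside that set. The members took 0.232%, 0.282% and 0.240% of the counts in lines 1, 2 and 3. Genes of S phase and proliferation were also highest in line 2 for 12 of 18 genes of the list, among them *Pcna* with 248.6, 330.6 and 313.6 CPM. All 18 reached at least 1 CPM in every line and 17 differed between lines. Their median distance on the log2 scale from their own average was -0.14, 0.12 and 0.00 in lines 1, 2 and 3. *Mki67* had 1237 ± 104 CPM (SD, n = 3), and *Tyms* varied most, with 109.3, 90.2 and 43.2 CPM. For the 9 members at 1 CPM or more in every line, the median deviations were -0.05, 0.15 and -0.09. The part of proliferation in the levels of the members was not tested.

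Deviations of the lines were also taken for neighbouring genes, as medians over 13 to 109 genes, which vary less than single genes by construction and are given as a description. For the genes within 5 Mb on either side of each member, median log2 deviations were taken per line, and the gap between the highest and the lowest line was 0.03 to 0.16. Around *Uhrf1*, 41 genes deviated by -0.04, 0.05 and -0.01 in lines 1, 2 and 3, against -0.37, 0.47 and -0.10 for *Uhrf1*. Around *Dnmt3b*, 85 genes deviated by -0.04, 0.00 and 0.03, against 0.21, 0.38 and -0.58 for the gene. Around *Ezh2*, 36 genes deviated by -0.06, -0.03 and 0.08, against -0.14, 0.07 and 0.06 for *Ezh2*.

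**Figure D4:**
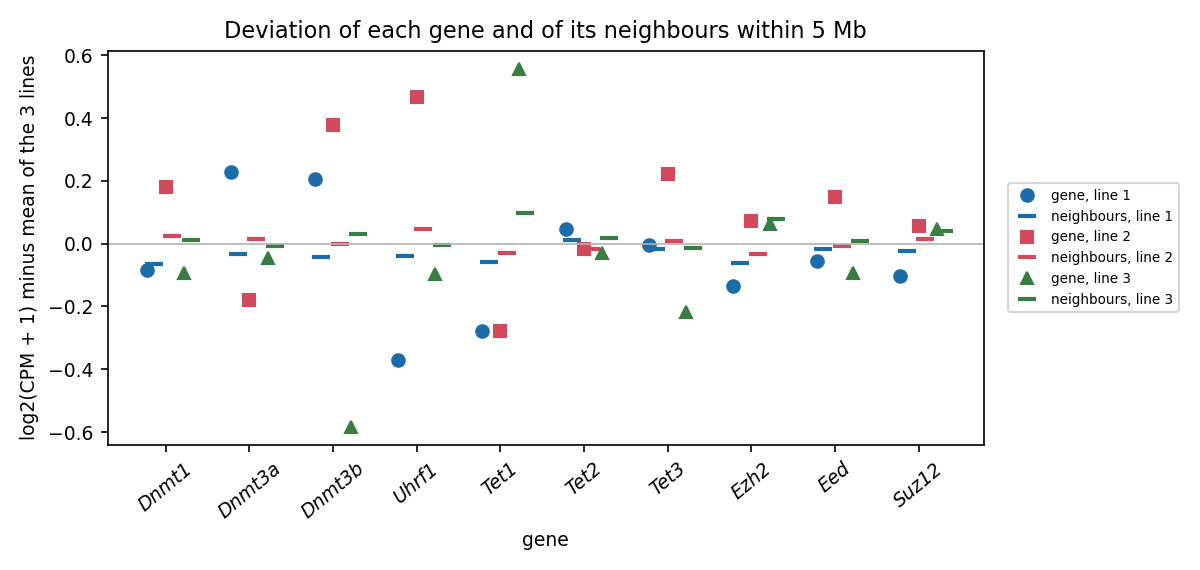
Deviation of each gene (symbols) and median deviation of the genes within 5 Mb of it (bars) from the mean of the 3 lines, in log2(CPM + 1), by line. *Uhrf1* is at 0.47 in line 2 and *Dnmt3b* at -0.58 in line 3, and the bars, medians over 13 to 109 genes, are not comparable in size with single genes.

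The partner genes of PRC2 on the list were all expressed. Of 10 partner genes, 10 reached at least 1 CPM in every line and 7 differed between lines, with a median SD of 0.18. Of all 50686 genes in the count table, 11186 had at least 10 counts in every line, a lower bar than 1 CPM at these depths. The share of all genes at 1 CPM is not given here. For this and the other lists, the background is that 66.8% of all genes tested differed. Among genes with a mean of at least 10 CPM, 81.2% differed. *Rbbp7*, a histone-binding subunit, was the most variable of them between lines, with 372.1, 399.9 and 742.6 CPM in lines 1, 2 and 3. It lies on the X chromosome, and so do *Kdm6a*, *Ogt* and *Zbtb33*. *Kdm6a* and *Ogt* were also highest in line 3, and *Zbtb33* was not. The part of the X chromosome in these differences was not tested. All members lie on autosomes. *Jarid2*, which guides PRC2 to chromatin, had 24.3, 48.2 and 32.3 CPM.

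PRC1 binds the mark that PRC2 makes and ubiquitinates histone H2A. Of its genes on the list, 19 of 19 reached 1 CPM in every line and 15 differed between lines. *Cbx6* had 137 ± 11.8 CPM (SD, n = 3), and *Phc1* varied most, with 24.2, 26.8 and 14.8 CPM. Of the H3K27 demethylases, *Kdm6a* had 64.6, 66.4 and 123.2 CPM and differed between lines, whereas *Kdm6b*, with 40.3 ± 1.46 CPM (SD, n = 3), did not pass.

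Among 9 partners of DNA methylation, 6 reached 1 CPM in every line, 5 of these differed between lines, and *Dnmt3l*, *Dppa3* and *Zfp57* had 0 counts. *Trim28* had 832 ± 60.4 CPM, and *Hells*, a chromatin remodeler needed for DNA methylation, varied most, with 226.7, 292.6 and 250.8 CPM. Of 12 genes of DNA demethylation and repair, 10 reached 1 CPM in every line and 9 of 11 tested differed. *Apex1* had 279 ± 11.5 CPM, *Gadd45b* varied most with 2.67, 5.77 and 1.49 CPM, and *Neil2* and *Gadd45g* stayed under 1 CPM. Of 7 readers of methylated CpG, 6 reached 1 CPM in every line and 5 differed, and *Mbd3* had 255 ± 4.39 CPM. Of 6 TET partners, 4 reached 1 CPM and 3 differed, with 244 ± 61.4 CPM for *Ogt*, *Idh2* most variable at 177.4, 140.5 and 264.2 CPM, and *Cxxc4* and *Wt1* at 0 counts. The 3 genes that supply S-adenosylmethionine all reached 1 CPM in every line, *Mat2a* had 471 ± 18.2 CPM, *Ahcy* varied most with 37.7, 35.0 and 46.8 CPM, and 2 of the 3 differed between lines (SD, n = 3 throughout).

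**Figure D5:**
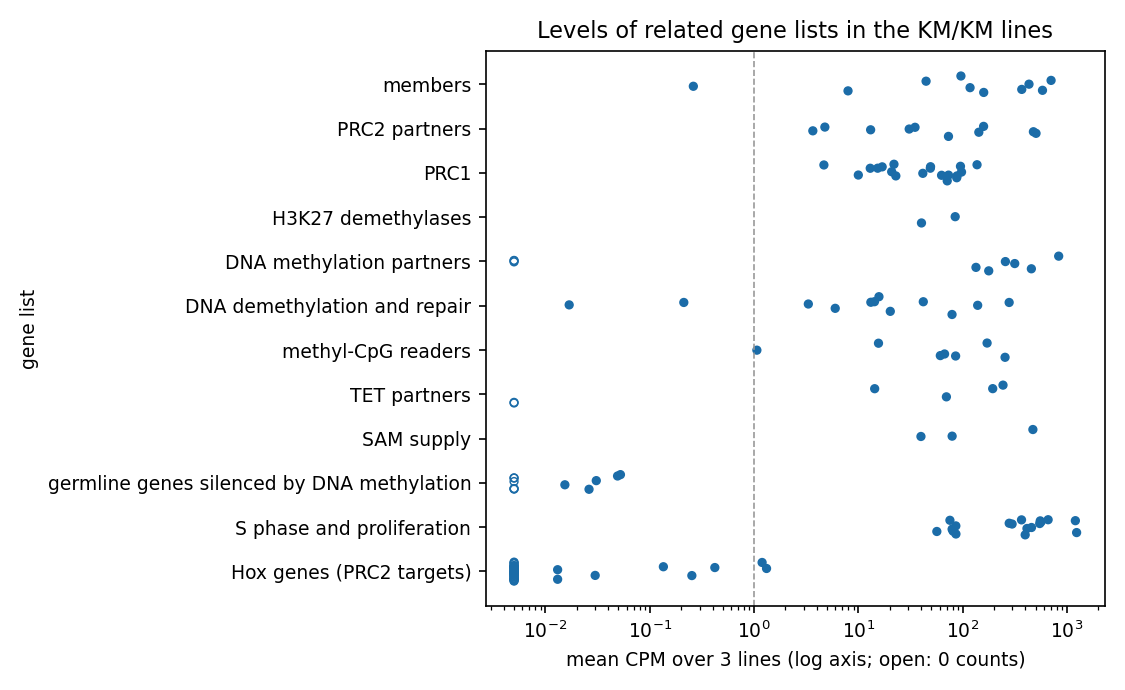
Mean level over the 3 lines, in CPM on a log axis, of each gene in the lists, with 1 point per gene, open points for 0 counts in every line and a dashed line at 1 CPM. Of the germline list, 0 of 11 genes reach 1 CPM, whereas 19 of 19 PRC1 genes do in every line. Of all 50686 genes in the count table, 11186 had at least 10 counts in every line, which is less than 1 CPM.

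Genes that DNA methylation or PRC2 is known to keep silent were largely unread, as were most genes in the count table. Over the whole count table, 20436 of 50686 genes had any count in the 3 lines, so most genes had none. Only 11186 had at least 10 counts in every line, which is less than 1 CPM at these depths. Low counts are thus not particular to these lists. DNA methylation and H3K27 trimethylation were not measured here. Of 11 germline genes known for silencing by DNA methylation, 0 reached 1 CPM in any line, 6 had 0 counts in every line, and the highest count was 4, for *Hormad1* in line 3. Of 39 *Hox* genes, classical targets of PRC2, 31 had 0 counts in every line and 36 were under 1 CPM in every line. The counts in line 2 came from a stretch of the *Hoxb* cluster on chromosome 11, with 78 counts for *Hoxb6*, 68 for *Hoxb4*, 24 for *Hoxb7*, 15 for *Hoxb5* and 8 for *Hoxb3*. In lines 1 and 3, these 5 genes had at most 3 counts each. The sum over all *Hox* genes was 0.184, 9.83 and 0.118 CPM in lines 1, 2 and 3, and *Hoxb6* had 3.95 CPM in line 2.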

How the data were processed

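Poly(A) RNA of 3 *Cdk6* KM/KM lines was analysed. According to the methods of the paper, the authors merged lanes, trimmed reads with trimmomatic, mapped them with STAR (mm10) and used FeatureCounts on Gencode M13 exons. The deposited values are these counts, not normalized. The kit is TruSeq in the paper but SENSE in the sample record, with single-end reads of 50 bases. Strand and multi-match settings are not given in the sources used here. The table holds 6 other per-sample columns, which were not used, and 0 rows that name no gene. Of 50686 genes, 50462 matched Gencode M21 (mm10) by identifier without its version.

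Counts were scaled with edgeR 4.0.16 (TMM) in R 4.3.3. Genes whose counts summed to at least 10 were tested by chi-square for homogeneity, with Benjamini-Hochberg adjustment at 0.05. SDs are of log2(CPM + 1). Biological coefficients of variation came from edgeR with an intercept only. Intervals are exact Poisson at 95%. A main transcript is the one with the longest coding sequence. Promoter sequences are RefSeq's (GRCm38.p6), where all 10 members matched. Python 3.11.15, numpy 2.4.6, pandas 2.3.3 and scipy 1.17.1 were used. The chi-square test was tried on counts simulated with counting noise alone and a change in some genes. The dispersion estimate was tried on counts simulated with the same coefficient of variation for every gene. Neither was set to the spread of these data, so both check the code only. Members and lists were chosen with earlier results of these data known. Named were the members, and of each list the gene with the most CPM, not corrected for length, and the most variable gene and those under 1 CPM in every line, or their number for germline and *Hox* genes; some genes that this rule names are not reported here. Genes beyond this rule (*Pcna*, *Jarid2*, *Uhrf2*, *Kdm6b*, X-linked genes, *Hoxb* genes) were chosen after their values were seen, as were the printed promoters, the motifs and the counts of genes highest in line 2. Alternatives tried were size factors of DESeq2 1.42.0, scaling by library size, other filters on low counts, pseudocounts and lengths, a level of 5 CPM, and leaving out each line.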

Additional observations from a re-analysis of the deposited data

How the results depend on the processing

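No paired analysis was possible because only 1 group was analysed here. The number of members that differed between lines was 9, and 9 with DESeq2 size factors, library size alone or no filter on low counts, and 8 when each line had to reach 10 counts, where *Tet1* was not tested. It was 7 in each of the 3 fits without a line, over different members, while the share over all genes tested fell from 66.8% to 54.3%, 54.5% and 47.1% without lines 1, 2 and 3. That share was 45.3% with no filter and 74.6% with 10 counts in each line. Member levels moved by less than 1 SD in 20 of 20 settings that kept every line. Without a line this is fixed by having 3 values, and the *Tet1* mean went from 0.262 to 0 CPM without line 3. The number of list genes at 1 CPM or more in every line, 78 of 136, was 73 at 5 CPM.

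The log2 ratio of *Dnmt1* to *Uhrf1*, -0.05, turned to 0.16 with the length of the main transcript and to 0.0931 without line 2, and ranged from -0.19 to 0.0931 over the fits without a line. With the length of the main transcript, *Dnmt1* to *Dnmt3a* moved from 3.32 to 3.00 and *Dnmt3a* to *Dnmt3b* from 2.68 to 3.22. *Tet2* to *Tet3* moved from -1.40 to -1.99 and *Ezh2* to *Ezh1* from 4.40 to 4.83. *Suz12* to *Eed* moved from 1.57 to 0.86 and *Ezh2* to *Eed* from 1.80 to 2.17. These shifts follow from the lengths themselves. Over the fits without a line, the median spread of the members, 0.182, ranged from 0.143 to 0.182. The *Tet3* to *Tet1* ratio has no mean, since *Tet1* had 0 counts in 2 lines. Depth limits *Tet1*, *Dnmt3b* and the *Hox* and germline genes, whose counts are low.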
